A study of Oryza sativa with 5 samples.

Results

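Histone H3 trimethylated at lysine 4 (H3K4me3) marks the starts of many transcribed plant genes, and histone H3 trimethylated at lysine 27 (H3K27me3) is written by Polycomb repressive complex 2 and spreads over silent genes. In Arabidopsis, where it is best studied, H3K27me3 often covers the body of a gene from end to end, and many developmental regulators carry it. The regions described here are the H3K4me3 regions that lie just outside such long stretches, which are called domains below, in rice male meiocytes (pollen mother cells, the cells that enter meiosis in the anther).

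Of 25715 H3K4me3 regions, 245 (0.953%) qualified as flanking regions, next to 219 of the 2146 long domains. A region of a mark was the sequence covered by peaks of both replicate libraries of that mark, with touching pieces joined. A flanking region overlapped no H3K27me3 region of any length, and its centre lay 500 to 3000 bp outside the nearest boundary of an H3K27me3 region of at least 2000 bp. The 5900 regions with the same lack of overlap and a centre 10 to 50 kb from the nearest long domain served for comparison and are called distant regions. The members were thus chosen from the positions of the peaks of all 4 libraries, so their position and their lack of shared H3K27me3 are descriptions.

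Chromatin came from pellets of 8000 to 10000 cross-linked meiocytes in early prophase I, and each mark was immunoprecipitated in 2 libraries that the labels call biological replicates. All groups shared the same cell type, with no treatment or mutation named in the labels, and no variety is named there either. The lists held 29941 and 27411 peaks for H3K4me3 replicates 1 and 2, and 19774 and 19450 for H3K27me3 replicates 1 and 2. Read depth is unknown, since only peak lists were used, and the input library was not analysed here. No source used here names the genome build, so positions are those of the lists and no gene, exon or promoter is named.

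Every comparison below is between sets of regions within the same libraries. Regions are not replicates, and with 2 libraries per mark a paired exact permutation test (two-sided) cannot go below p = 0.5. No test was therefore made, and a difference is set beside the same value in the other library where each library gives one. Densities, overlap with H3K27me3 regions, neighbours, edge distances and shares of flanked domains come from both replicates together. They are single values without such a check. Wilson intervals (95%) given with shares cover counting error only.

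Long H3K27me3 domains seldom had an H3K4me3 region free of H3K27me3 beside them. A flanking region stood at 225 of 4292 domain boundaries (5.24%). This share depends on the width of the distance range and on the rule, which removed 227 of 472 H3K4me3 centres there for overlapping H3K27me3. No such share was computed for positions away from domains. Of the 219 flanked domains, 195 had 1 such region, 22 had 2 and 2 had 3, and only 6 had them on both sides. Flanking regions lay left of the domain in 126 cases and right of it in 119, in similar numbers. Their centres were 520.5 to 2971.5 bp from the boundary, with a median of 1950 bp.

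The density of H3K4me3 regions was low at these distances and higher from 4000 to 50000 bp. Per Mb of sequence outside H3K27me3 regions, there were 36.7 flanking regions and 74.4 distant ones, a ratio of 0.494. By distance, the density was 27.2 regions per Mb at 500 to 1000 bp, 32.2 at 1000 to 1500 bp, 42.3 at 1500 to 2000 bp, 41.1 at 2000 to 2500 bp and 40.3 at 2500 to 3000 bp. It was 42.0 regions per Mb at 3000 to 4000 bp, 59.4 at 4000 to 5000 bp and 67.6 at 5000 to 10000 bp. Beyond 50 kb, where 14821 regions lay, it was 59.5 per Mb, so the distant set was the densest of the distance classes and the ratio of 0.494 is set against that class. The low density thus ran past the outer limit of 3000 bp that defines flanking regions. Because a region may not touch the domain, the rule itself removes wide regions with a centre close to 500 bp, but hardly any at 3000 bp. At every distance it also removes regions that overlap a short H3K27me3 region. These were 48.1% of H3K4me3 centres at 500 to 3000 bp and 10.8% at 10 to 50 kb. With them counted in, over all bases at these distances, there were 56.1 and 81.1 centres per Mb. How much this removal lowers the ratio of 0.494 was not tested.

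**Figure D1:**
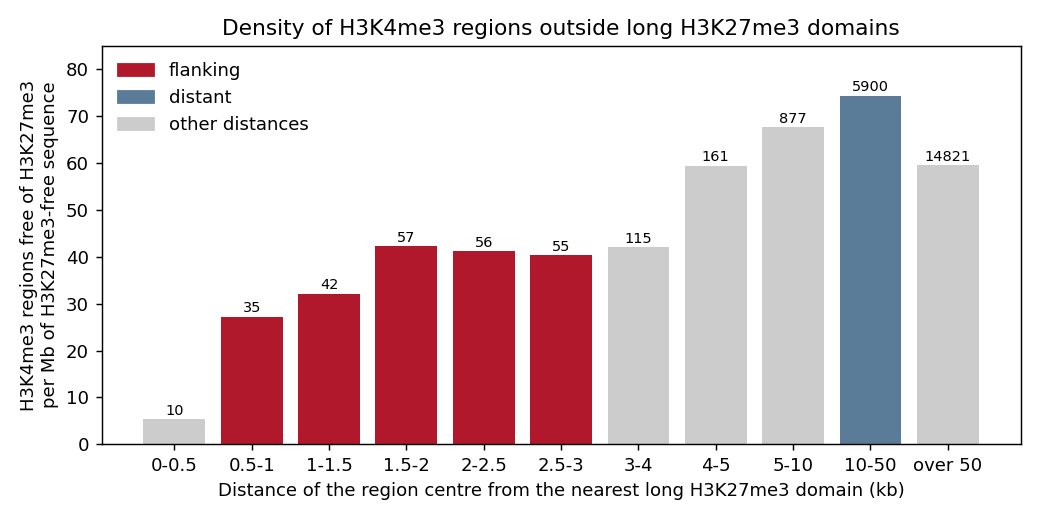
Density of H3K4me3 regions free of H3K27me3 (regions per Mb of sequence outside H3K27me3 regions) by distance of their centre from the nearest long H3K27me3 domain (kb). Bars are single values over the genome and the number above each is its count of regions. The 5 bars of flanking regions reach 27.2 to 42.3 per Mb, all below the 74.4 per Mb of distant regions and the 59.5 per Mb beyond 50 kb.

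Regions on either side of the limits were as follows. The region just inside 500 bp (chromosome 8 at 19383085 to 19383419) was centred 520.5 bp from its domain and had fold percentiles of 51.2 in H3K4me3 replicate 1 and 2.04 in replicate 2. The one just outside (chromosome 4 at 27948505 to 27948787) was at 495.5 bp, with percentiles of 17.99 and 25.9. At the outer limit the neighbours were at 2971.5 bp (chromosome 1 at 27656336 to 27657584) and 3002.5 bp (chromosome 4 at 22149881 to 22150261), and their percentiles were 97.0 and 99.2 for the nearer and 42.1 and 41.6 for the farther one. For domain length, the shortest flanked domain measured exactly 2000 bp, and the longest one that missed the limit and had a region in the same distance range measured 1985 bp. These percentiles are of fold enrichment over background within each list, and they are single values with no trend to be read from them.

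Many more H3K4me3 regions stood at these distances but carried H3K27me3 themselves. Of all 472 H3K4me3 centres 500 to 3000 bp outside a long domain, 227 (48.1%, interval 43.6 to 52.6%) belonged to regions that overlapped a short H3K27me3 region and were therefore no members. At 10 to 50 kb the share was 714 of 6614 (10.8%, interval 10.1 to 11.6%). Short H3K27me3 regions were themselves crowded near long domains, where they held 20.8% of the bases, against 2.79% of the bases at 10 to 50 kb. With these regions counted in, there were 56.1 H3K4me3 centres per Mb beside the domains and 81.1 per Mb at 10 to 50 kb.

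Among the flanking regions themselves, H3K27me3 was often called in 1 replicate. A peak of H3K27me3 replicate 1 overlapped 73 of the 245 flanking regions (29.8%, interval 24.4 to 35.8%) and 640 of the 5900 distant regions (10.8%, interval 10.1 to 11.7%). A peak of H3K27me3 replicate 2 overlapped 2 of the flanking regions (0.816%) and 18 of the distant regions (0.305%). The H3K27me3 found on flanking regions was thus almost wholly that of replicate 1. Taking both libraries together, a peak of exactly 1 H3K27me3 replicate lay on 30.6% of flanking regions and on 11.1% of distant regions, a difference of 19.5 percentage points. The share under replicate 1 was higher in flanking than in distant regions on 12 of 12 chromosomes, with only 8 to 33 flanking regions on each.

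These calls were mostly separate peaks and not tails of the domain's own peak. In 69 of the 73 regions the replicate 1 peak was a different peak from the one that formed the domain, and in 4 it was the same peak. The separate peaks were weak, with a median in the 20.4th percentile of fold enrichment within the H3K27me3 replicate 1 list, and 44 of the 73 regions were covered over all their bases. Fold enrichment is the value over background that the authors' peak caller gave for each peak, and it is used here only as a rank within 1 list.

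The sequence around the domains was also richer in replicate 1 peaks, so the share has to be read against its surroundings. Among bases outside H3K27me3 regions, replicate 1 peaks held 13.9% at 500 to 3000 bp from a long domain and 2.44% at 10 to 50 kb. They held 26.4% of the bases of flanking regions and 8.50% of those of distant regions. Relative to the bases at the same distance, the H3K4me3 regions were thus 1.89 times as often covered beside the domains and 3.48 times at a distance. For H3K27me3 replicate 2 the ratios were 0.0368 for flanking regions and 0.0793 for distant regions, both far below 1. Bases with both replicates' peaks had been removed by the rule, which lowers the values of both lists.

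**Figure D2:**
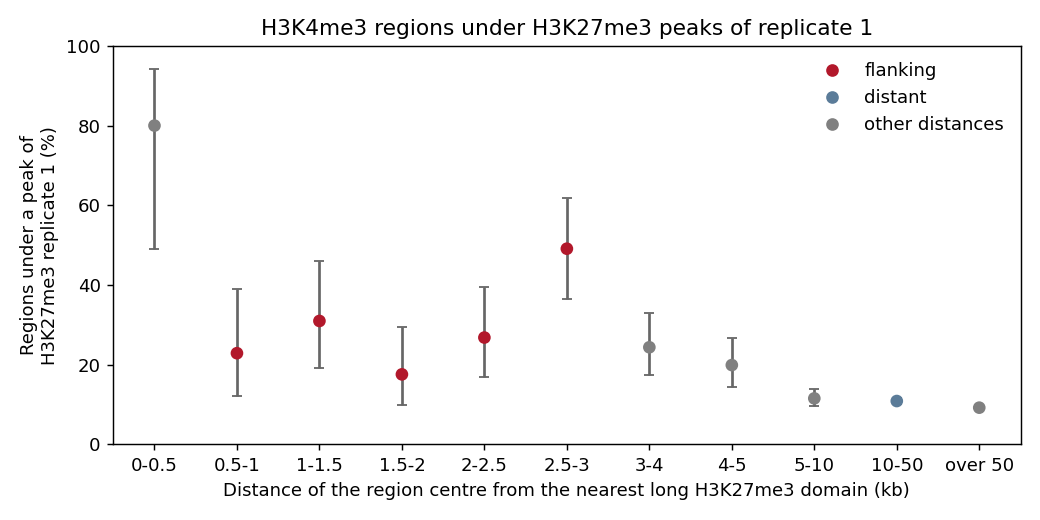
Share of H3K4me3 regions free of shared H3K27me3 that lay under a peak of H3K27me3 replicate 1 (%), by distance from the nearest long domain (kb). Points are shares and bars their 95% Wilson intervals. The share in flanking regions runs between 17.5% and 49.1%, against 10.8% in distant regions.

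By distance the share under replicate 1 peaks was uneven. It was 22.9% at 500 to 1000 bp, 31.0% at 1000 to 1500 bp, 17.5% at 1500 to 2000 bp and 26.8% at 2000 to 2500 bp. At 2500 to 3000 bp it came to 27 of 55 regions (49.1%, interval 36.4 to 61.9%), and at 3000 to 4000 bp to 24.3% (interval 17.4 to 32.9%). Each of these classes holds few regions. Beside domains of at least 5000 bp the share was 16 of 38 (42.1%, interval 27.9 to 57.8%), against 36 of 129 (27.9%, interval 20.9 to 36.2%) beside those under 3000 bp, and the intervals overlap.

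The median rank of flanking regions by H3K4me3 fold enrichment was close to that of distant regions, while their quartiles lay lower in both libraries. In H3K4me3 replicate 1, flanking regions ranged from the 0.394th to the 99.9th percentile of the list with a median of 59.3, against a median of 63.4 for distant regions. In replicate 2 the median was 54.6 for flanking regions and 54.1 for distant regions. The differences of −4.08 and 0.454 percentile points had opposite signs in the 2 libraries. The lower quartile was at the 36.6th percentile in flanking and the 41.2nd in distant regions in replicate 1, and at 19.6 and 28.4 in replicate 2. The upper quartile was at 77.2 and 82.7 in replicate 1 and at 76.6 and 78.0 in replicate 2. By chromosome the flanking median was the lower in 9 of 12 chromosomes in replicate 1 and in 6 of 12 in replicate 2. The replicate 1 difference grew to −14.0 points, and that of replicate 2 became −3.25, when only peaks overlapping by 50% of both replicate peaks made a region.

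Rank differed more between regions with and without an H3K27me3 replicate 1 peak than between flanking and distant regions. Flanking regions under an H3K27me3 replicate 1 peak had median percentiles of 36.8 and 40.4 in the H3K4me3 lists of replicates 1 and 2, and distant regions under such a peak had 35.0 and 34.2. The 170 flanking regions under no H3K27me3 peak had medians of 67.6 and 60.1, and the 5244 such distant regions 66.9 and 56.9. Without the regions under H3K27me3 peaks, the difference between flanking and distant regions was 0.695 points in replicate 1, where it changed sign, and 3.22 in replicate 2. Regions with their centre inside a long domain ranked lower than both sets, with medians of 26.5 and 34.2 over 910 regions. Flanking regions under no H3K27me3 peak therefore ranked nearer to distant H3K4me3 than to the H3K4me3 inside the domains.

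**Figure D3:**
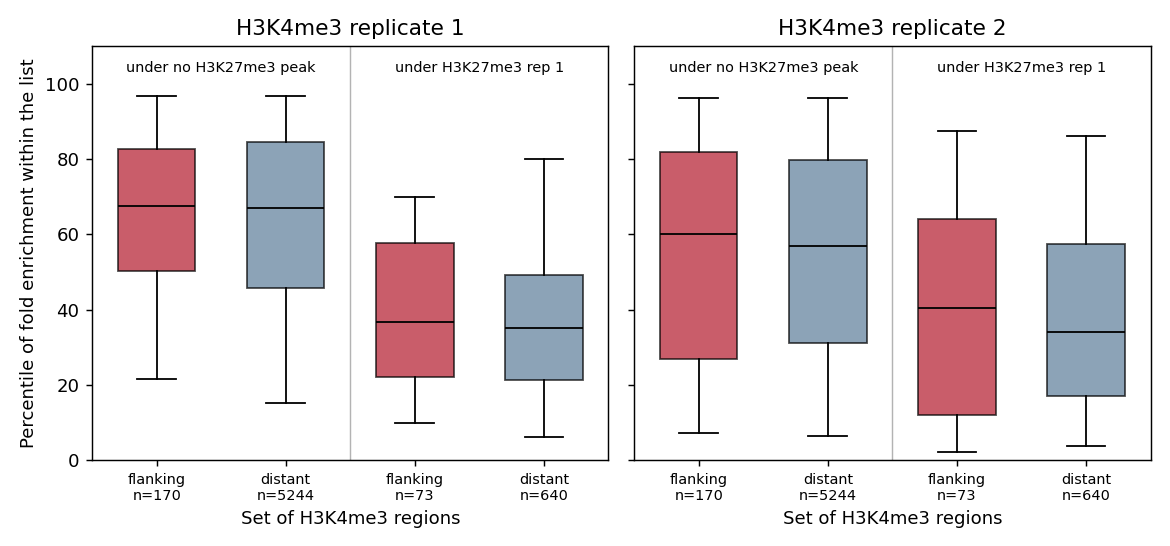
Percentile of H3K4me3 fold enrichment within the list of each library, for flanking and distant regions under no H3K27me3 peak and under a peak of H3K27me3 replicate 1. Boxes span the quartiles with the median as a line, and whiskers the 5th to 95th percentile. Medians of flanking and distant regions lie close in each pair, and regions under H3K27me3 peaks rank lower in both libraries.

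The flanking regions included some of the most enriched H3K4me3 peaks of both lists. The highest mean rank belonged to chromosome 2 at 33146919 to 33147508 (590 bp), with a fold of 11.4 and 5.26 in replicates 1 and 2, in the 99.9th percentile of both lists, centred 2133 bp right of a domain of 4727 bp. Next was chromosome 8 at 23273392 to 23274159, in the 97.9th and 98.6th percentile, 1267 bp from a domain of 2053 bp. The third was chromosome 6 at 27866878 to 27867229, in the 99.5th and 96.8th percentile, 1713 bp from a domain of 9873 bp. The high ranks therefore occurred beside both short and long domains. The last of the 5 with the highest mean rank, on chromosome 1 at 27656336 to 27657584 and chromosome 4 at 24971667 to 24972353, lay 2971.5 and 675.5 bp from their domains. None of these 5 overlapped an H3K27me3 peak of either library.

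At the other end were peaks of low fold in both lists. The region on chromosome 11 at 17619221 to 17619425 ranked in the 0.394th and 2.17th percentile, with a −log10 q of 3.46 and 3.21. Those on chromosome 8 at 28220652 to 28220933 and chromosome 4 at 26617661 to 26617903 had mean ranks of 2.46 and 2.61. Only the chromosome 8 region lay under an H3K27me3 replicate 1 peak. Over all members, 23 (9.39%, interval 6.34 to 13.7%) were in the lowest 25% of both lists, against 330 of the distant regions (5.59%, interval 5.04 to 6.21%). In the top 25% of both lists were 39 (15.9%, interval 11.9 to 21.0%), against 17.0% of distant regions. In single lists the sets stood further apart at 1 end each. The top 25% of replicate 1 held 26.9% (interval 21.8 to 32.8%) of flanking and 35.0% (33.8 to 36.2%) of distant regions, while that of replicate 2 held 28.2% and 28.6%. The lowest 25% of replicate 2 held 30.2% (interval 24.8 to 36.2%) of flanking and 22.2% (21.2 to 23.3%) of distant regions, while that of replicate 1 held 14.7% and 11.7%.

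Flanking regions were narrower than distant ones. The median width was 387 bp (quartiles 284 and 531 bp) for flanking regions and 435 bp (303 and 603 bp) for distant regions. The peaks under them had a median width of 602 bp in H3K4me3 replicate 1 and 408 bp in replicate 2 for flanking regions, and 669 bp and 461 bp for distant regions. Flanking regions were thus narrower by 67 and 53 bp in the 2 libraries, but the 2 distributions overlapped over nearly their whole range. The median was the lower in 9 of 12 chromosomes. Since the rule excludes wide regions nearest to a boundary, regions of at most 1000 bp were compared on their own, with 381 bp for flanking and 422 bp for distant regions. Among regions under no H3K27me3 peak the medians were 390 and 438 bp. The rule also removed regions that overlapped a short H3K27me3 region, and a wide region meets such overlap more easily. It removed 48.1% of H3K4me3 centres beside the domains and 10.8% at 10 to 50 kb. Both comparisons leave the same regions out, so they cannot show how much this removal narrows the flanking set, which was not tested.

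**Figure D4:**
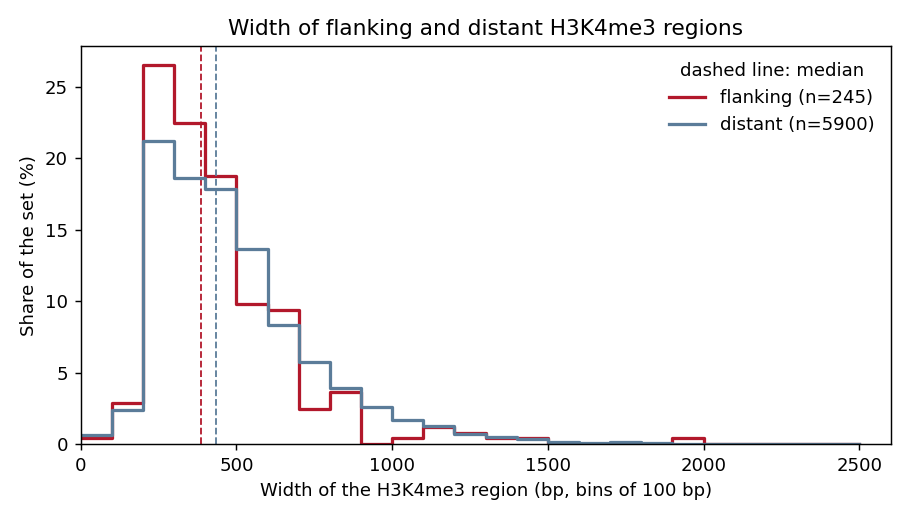
Widths of flanking and distant H3K4me3 regions (bp) as shares of each set (%) in bins of 100 bp, with dashed lines at the medians of 387 and 435 bp. Both sets span a similar range and the flanking regions are shifted slightly to the left.

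Width was not graded by the length of the domain. Flanking regions had a median width of 399 bp beside domains of 2000 to 3000 bp, 364 bp beside those of 3000 to 5000 bp and 398 bp beside those of at least 5000 bp. The widest member (1964 bp), from 21722318 to 21724281 of chromosome 8, ranked 78.7 and 68.9 on the percentile scale of fold in H3K4me3 replicates 1 and 2. The next, from 27346557 to 27348022 of chromosome 12, measured 1466 bp and ranked 62.1 and 93.3. Chromosome 5 had the one after it, from 27290786 to 27292090, with 1305 bp and ranks of 88.3 and 53.6. None of these was among the regions of highest mean rank named above. All of them ranked above the flanking median of 59.3 in replicate 1. In replicate 2 the one on chromosome 5 ranked below the median of 54.6 and the others above it. A narrower member (1249 bp), from 27656336 to 27657584 of chromosome 1, ranked 97.0 and 99.2. Whether rank goes with width over all members was not tested.

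The H3K4me3 summit, the base of highest signal in a peak, showed no clear lean in the full set. It lay on the side of the region centre away from the domain in 45.3% (interval 39.2 to 51.6%) of flanking regions in replicate 1 and 49.4% (43.2 to 55.6%) in replicate 2. In distant regions the shares were 50.5% and 48.8%. The median offset was −13 and −4 bp in flanking regions, negative meaning towards the domain, and 1.5 and −2 bp in distant regions. These offsets are small beside the median of 48 bp between the summits of the 2 replicates in flanking regions. Averaged over both libraries, the share away from the domain was 47.3%. It was 40.5% without H3K27me3 replicate 2 and 44.4% among regions under no H3K27me3 peak, and other settings stayed closer to 47.3%. Some regions share a peak: 37 flanking regions (15.1%) had a replicate 1 peak that also covered another region, as did 15.6% of distant regions. In such cases the summit can lie outside the region, as with an offset of 801 bp for a region 241 bp wide on chromosome 5.

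Domains with and without a flanking H3K4me3 region had similar ranks, and the flanked ones had a lower median length. The median length was 2851 bp for the 219 flanked domains and 3083 bp for the 1927 others. In H3K27me3 replicate 1 their peaks had a median length of 3728 bp in flanked domains and 4495 bp in the others. In replicate 2 the values were 3116 and 3372 bp. These peak-length differences had a spread of 361 bp between the 2 libraries, larger than the −232 bp between the median domain lengths. Without H3K27me3 replicate 2 the difference in median domain length was −28 bp. With only domains of at least 5000 bp, the difference in median length was 377 bp, in the other direction. The share of domains that were flanked was 11.1% (interval 9.36 to 13.2%) at 2000 to 3000 bp, 9.58% (7.67 to 11.9%) at 3000 to 5000 bp and 8.87% (6.39 to 12.2%) at 5000 bp and over, so the intervals overlap. Their peaks had median ranks by fold of 89.5 and 89.0 in H3K27me3 replicates 1 and 2 in flanked domains, and 90.3 and 89.7 in the others. An H3K4me3 centre lay inside 82 of the flanked domains (37.4%, interval 31.3 to 44.0%) and 639 of the others (33.2%, interval 31.1 to 35.3%).

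The replicates placed the domain edge more alike at boundaries with a flanking region than at the others. The distance between the edges of the 2 H3K27me3 replicates had a median of 130 bp (quartiles 42 and 385 bp) at the 225 flanked boundaries and 272 bp (54 and 1277 bp) at the 4067 others. The upper quartiles lay furthest apart. Replicate 1 reached at least 500 bp beyond the shared boundary at 40 flanked boundaries (17.8%) and at 34.1% of the others, and replicate 2 at 9 (4.00%) and 7.65%. Both libraries thus had fewer such extensions at flanked boundaries. The rule and the edges both come from the same H3K27me3 lists. A long extension of 1 replicate can share bases with short H3K27me3 regions, and H3K4me3 regions overlapping those were no members. Such boundaries can count among the others even where H3K4me3 is present, and how much this adds to the difference was not tested. The difference in medians, −142 bp, changed to 42.5 bp when regions were made only from peaks overlapping by 50% of both, a setting that removes peaks with very unequal edges.

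Of the 6 domains flanked on both sides, the 3 longest are described. The longest covered chromosome 9 from 19252327 to 19257649 (5323 bp) and held no H3K4me3 centre. Its left neighbour at 19251113 to 19251736 ranked in the 19.1st and 2.33rd percentile of H3K4me3 fold and lay under an H3K27me3 replicate 1 peak, whereas the right one at 19260270 to 19260587 ranked in the 67.3rd and 89.2nd and lay under none. On chromosome 2 the domain from 35332911 to 35337239 (4329 bp) had a neighbour at 35331512 to 35331834 in the 71.5th and 83.9th percentile and one at 35339282 to 35340476 in the 33.5th and 8.12th, and only the second lay under a replicate 1 peak. The domain on chromosome 8 from 745861 to 749120 (3260 bp) had neighbours at 744801 to 745465, in the 57.1st and 96.1st percentile, and at 751401 to 751915, in the 41.3rd and 68.0th. In each of these 3 pairs the neighbour with the lower mean rank was the one under an H3K27me3 replicate 1 peak. None of the flanking regions of the other 3 domains lay under such a peak.

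**Figure D5:**
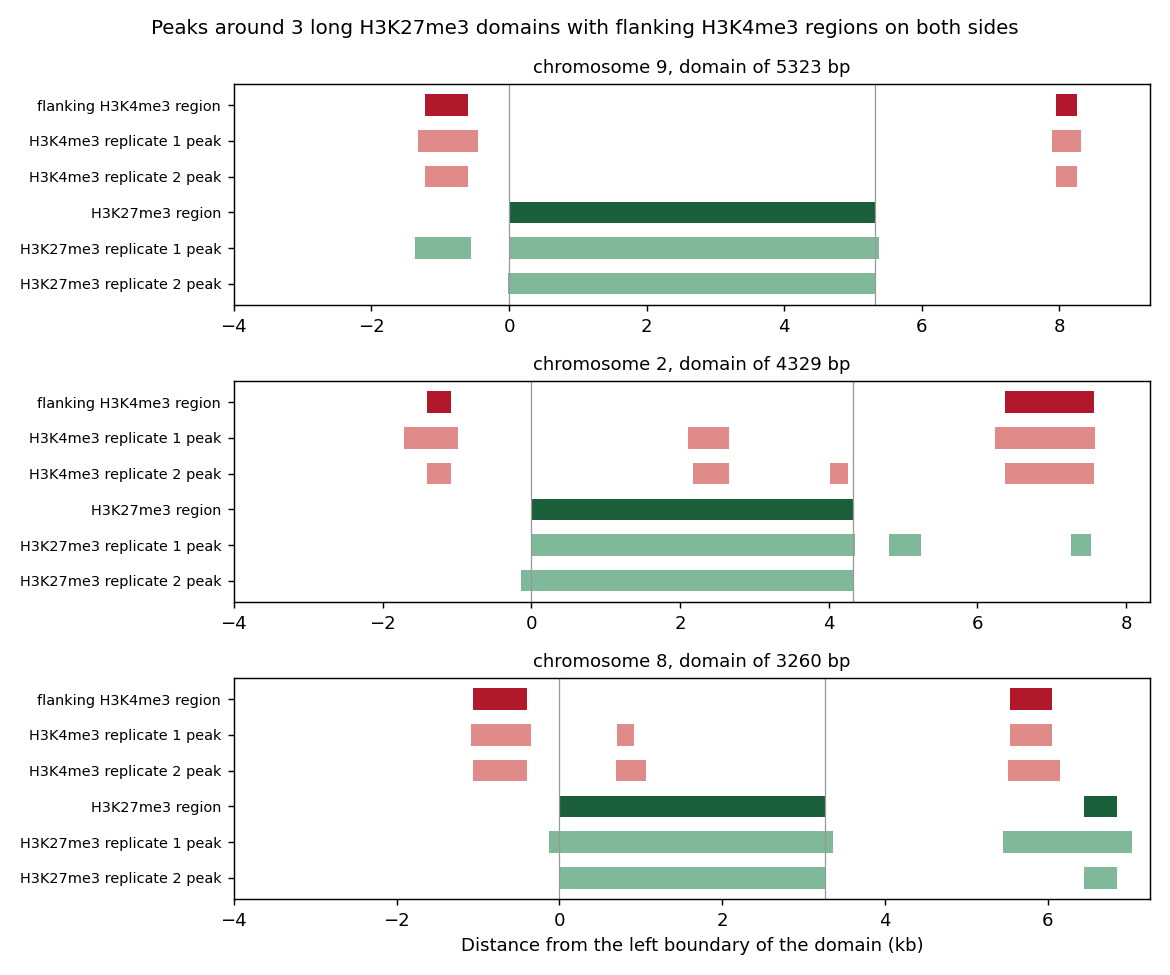
Peaks and regions around the 3 longest H3K27me3 domains with flanking H3K4me3 regions on both sides, by distance from the left boundary of the domain (kb). Grey lines mark the domain boundaries, and rows show the flanking regions, the H3K4me3 peaks of each library, the H3K27me3 regions and the H3K27me3 peaks of each library. In each map 1 of the 2 flanking regions overlaps a peak of H3K27me3 replicate 1 and neither overlaps one of replicate 2.

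The 2 domains with 3 flanking regions were close to the minimum length of 2000 bp. On chromosome 1 the domain from 4720387 to 4722486 (2100 bp) had 1 region on the left at 4718043 to 4718737, in the 95.1st and 96.6th percentile, and 2 on the right, at 4724328 to 4724858 and 4725120 to 4725323. On chromosome 6 the domain from 3269784 to 3271882 (2099 bp) had 1 on the left at 3266620 to 3267224 and 2 on the right, at 3273417 to 3273810 and 3274054 to 3274081. The last measured 28 bp, the narrowest of all members, and shared its replicate 1 peak with its neighbour. Counts of 2 or 3 regions can thus come from 1 H3K4me3 peak split by the other replicate. The same held for the longest of the 22 domains with 2 regions, on chromosome 1 from 41910123 to 41918932 (8810 bp), whose regions on the right had the same replicate 1 fold of 6.17.

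Flanking regions had as much H3K4me3 around them as distant ones, but more H3K27me3 on the side away from the domain. Within 5 kb of the centre the mean number of other H3K4me3 regions was 0.853 for flanking regions and 0.902 for distant regions. The nearest one was within 1000 bp for 26.5% (interval 21.4 to 32.4%) of flanking regions and 27.2% (26.1 to 28.4%) of distant regions. A further H3K27me3 region of any length began within 3000 bp on the far side for 35 flanking regions (14.3%, interval 10.5 to 19.2%) and for 4.66% (4.15 to 5.23%) of distant regions. Those 35 stood between H3K27me3 regions on both sides. For H3K4me3 regions 3 to 10 kb from a long domain the share was 6.85% (interval 5.53 to 8.46%). The share has to be read against its surroundings, since short H3K27me3 regions held 20.8% of the bases beside the domains. At 10 to 50 kb they held 2.79%. Whether flanking regions differ in this from other positions beside a domain was not tested.

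Flanking regions were found on every chromosome. Their number ranged from 8 on chromosome 11 to 33 on chromosome 1. The share of long domains with a flanking region was lowest on chromosome 11, with 8 of 152 (5.26%, interval 2.69 to 10.04%), and highest on chromosome 5, with 25 of 166 (15.1%, interval 10.4 to 21.3%). As a share of all H3K4me3 regions of the chromosome, they made up 0.629% on chromosome 11 and 1.29% on chromosome 5. No test was made between chromosomes.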

How the data were processed

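Peak lists of 4 libraries were used, grouped by the mark in the sample title. Per the submitters' processing notes, fastp, Bowtie2, Picard, SAMtools, deepTools and MACS2 were used, and no source used here gives versions, calling thresholds or the build. Names in the deposited lists carry tags such as merge and subsample, whose meaning is not stated and which may reflect unequal handling of libraries. The deposited fold enrichment is, by the authors' format, a ratio to background, the deposited significance is −log10 q, and the deposited score was not used. H3K4me3 lists are narrow peaks, H3K27me3 lists broad peaks.

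Intervals were joined with Python 3.11.15 and numpy 2.4.6, Wilson intervals came from scipy 1.17.1 and figures from matplotlib 3.10.9. Overlap meant at least 1 bp. Under each region the peak of highest fold was used. Simulated lists with planted flanking regions were used to test the interval code. Members, comparison sets and measures were chosen with earlier results of these data known. Regions named are the 5 highest and 3 lowest by mean rank, the 3 widest, those of the 3 longest domains flanked on both sides, those of the 3 domains with most flanking regions (ties by length), and those next to the limits. Alternatives were a −log10 q of at least 5, overlap by 50% of both peaks, leaving out each library, domains of at least 5000 bp, other distances and another distant set. Comparisons limited to regions under no H3K27me3 peak or to regions of at most 1000 bp were added after seeing the data.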

Additional observations from a re-analysis of the deposited data

How the results depend on the processing

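Of 79 recomputed values, 61 moved by less than a set spread and 18 moved further. The cause was not tested beyond what each setting itself does. The spread was the standard deviation of 2 values, 1 per library. For region width, edge distance and domain length, these came from widths, extensions and lengths of single-library peaks. For domain length it was 361 bp, wider than the difference of −232 bp itself, so a small change there says little. For the share under 1 H3K27me3 replicate it was 5.73 points, from the middle of the Wilson interval to its end. The number of regions was allowed to change 1.5 times. Among all 79 values the sign changed in 8. Of these, 5 were rank differences in replicate 2, where the reported 0.454 points is itself within the spread. The others were the values of 377 bp, 42.5 bp and 0.695 points given here. Domains of at least 5000 bp left 40 flanking regions, with a rank difference of 5.34 points in H3K4me3 replicate 2, a width difference of −33 bp, 28.6 points for overlap with 1 H3K27me3 replicate, an edge distance difference of −238.5 bp and a length difference of 377 bp between flanked and other domains, against −232 bp. Overlap by 50% of both peaks gave rank differences of −14.0 and −3.25 points and an edge difference of 42.5 bp. A −log10 q of at least 5 gave an edge difference of −192.5 bp, and centres at 1500 to 3000 bp gave −93 bp. Keeping distant regions that overlap H3K27me3 gave a rank difference of −0.0735 points in replicate 1, and regions 3 to 10 kb away gave a width difference of −36 bp. Regions under no H3K27me3 peak gave 0.695 points in replicate 1 and 44.4% of summits away from the domain, against a mean of 47.3%. Leaving out 1 library gave 260 to 330 flanking regions, −9.53 to −2.14 points in replicate 1, −1.88 to 0.815 points in replicate 2, −59.5 to −48 bp in width, 19.8 to 20.3 points for overlap with 1 H3K27me3 replicate, 40.5% to 47.3% of summits, −165 to −143.5 bp in edge distance and −225 to −28 bp in domain length. Without H3K27me3 replicate 1 or 2 there is no edge distance and no overlap with a single replicate. No paired analysis was possible because no result comes from a test and the marks' replicate numbers are not stated to pair libraries. Depth is unknown, and more reads give more and wider peaks, so weak flanking regions may be missed.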
